A study of Mus musculus with 4 samples.

Results

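The comparison described here sets cells sorted from TC-1 tumours 7 days after cisplatin against cells sorted 3 days after cisplatin. Its members are all barcodes of the 2 libraries with at least 500 detected genes and at most 10% of counts from mitochondrially encoded genes. These are 4964 of 6264 barcodes on day 3 and 2771 of 2981 on day 7, together 7735 of the 23294 barcodes that pass the same filter in the 4 libraries of the series. TC-1 is a transplantable mouse lung epithelial tumour line. C57/bl6 wild-type mice carried TC-1 tumours that had been started under the skin with 300000 cells, and both groups received cisplatin (6 mg/kg, intraperitoneally, 1 dose) when the tumour measured 40 mm2. The sort took CD45+, lineage-negative cells bearing CD90 and CD127, which is meant to enrich innate lymphoid cells (ILCs). From each sort 15000 cells were loaded for 10x 3' version 3 chemistry. The number of mice in a library is not given in the sources used here. Each day is 1 library, so there is no replicate check and no test, and every interval below is a 95% interval of counting error only. Day after cisplatin, tumour age, sort and library cannot be told apart. A PBS library and a day 1 library of the same series serve below only to show how far the 2 libraries differ technically.

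Cisplatin forms adducts and crosslinks in DNA, and damaged cells stabilise p53, which induces the cell cycle inhibitor Cdkn1a and its own antagonist Mdm2. DNA and RNA sensing can also start type I interferon, which acts on promoters with an interferon-stimulated response element (ISRE), while interferon-gamma raises MHC genes, Cxcl9 and Cxcl10. Monocytes that carry Ly6C enter tumours from the blood and turn into macrophages, in which Ly6c2 is lost and genes such as Mrc1, Cx3cr1 or C1qa are gained.

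The promoters of 7 members of the lists that the results turn on are shown because these genes were lower or higher as groups. Each window holds the 150 bases before the annotated transcription start (RefSeq, GRCm38.p6, the assembly also named mm10), written 5′ to 3′ on the strand of the gene. The first 4 are the type I interferon-induced genes with the most UMIs among those that hold GAAANNGAA, the core of the ISRE, on either strand. Capitals mark that motif, which overlaps itself in Isg15 and Bst2.
Isg15 (chr4:156200819-156200968, reverse strand): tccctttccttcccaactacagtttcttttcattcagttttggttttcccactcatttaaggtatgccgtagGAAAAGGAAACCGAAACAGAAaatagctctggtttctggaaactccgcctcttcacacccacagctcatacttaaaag
Bst2 (chr8:71537473-71537622, reverse strand): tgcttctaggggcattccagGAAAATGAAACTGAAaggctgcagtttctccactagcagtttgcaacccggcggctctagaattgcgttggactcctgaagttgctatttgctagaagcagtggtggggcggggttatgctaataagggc
Rsad2 (chr12:26456453-26456602, reverse strand): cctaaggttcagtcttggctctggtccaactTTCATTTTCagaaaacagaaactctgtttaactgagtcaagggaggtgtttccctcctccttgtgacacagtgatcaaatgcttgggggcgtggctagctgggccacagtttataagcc
Ifit3 (chr19:34583379-34583528, forward strand): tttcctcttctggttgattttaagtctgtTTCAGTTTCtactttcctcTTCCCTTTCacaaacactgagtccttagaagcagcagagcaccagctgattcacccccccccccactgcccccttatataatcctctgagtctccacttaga
The other 3 are genes of the G2M phase of the cell cycle chosen in the same way for TTTGAA, the cell cycle homology region (CHR), with capitals on either strand.
Hmgb2 (chr8:57511693-57511842, forward strand): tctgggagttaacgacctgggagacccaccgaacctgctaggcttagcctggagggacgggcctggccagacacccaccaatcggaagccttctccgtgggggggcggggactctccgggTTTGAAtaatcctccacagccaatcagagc
Ube2c (chr2:164769779-164769928, forward strand): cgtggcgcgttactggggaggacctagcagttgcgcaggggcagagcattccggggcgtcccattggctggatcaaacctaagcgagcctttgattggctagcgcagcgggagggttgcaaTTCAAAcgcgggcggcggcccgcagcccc
Cks1b (chr3:89418292-89418441, reverse strand): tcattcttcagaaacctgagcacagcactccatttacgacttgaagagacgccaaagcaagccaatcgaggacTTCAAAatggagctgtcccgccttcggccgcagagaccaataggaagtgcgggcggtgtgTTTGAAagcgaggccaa
Of the 43 interferon-induced genes with enough counts, 33 had a promoter in the table, and 15 of the 33 (45.5%) held the ISRE core in this window. Among all 9131 genes with enough counts and a promoter the share was 4.54%. Of 48 G2M genes with a promoter, 17 (35.4%) held TTTGAA, beside 6.74% of the 9131, and 36 (75.0%) held CCAAT, beside 32.0%. A match is a description of these letters, not of a bound site.

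The values are counts of unique molecular identifiers (UMIs), 1 per captured RNA molecule. The kept barcodes held 34636051 UMIs on day 3 and 15945840 on day 7, with medians of 6217 and 5120 UMIs and 2148 and 1839 genes per barcode. Summed counts were scaled to counts per 1000000 UMIs (CPM) and given as log2 of day 7 over day 3. A gene was counted as higher or lower when its ratio was at least 2-fold and it had at least 50 UMIs over both libraries. Of 11765 such genes over all kept barcodes, 11.8% were higher and 11.2% were lower on day 7, with a median log2 ratio of -0.00. The 2 libraries shared 4 barcode sequences, 3 of them among the kept barcodes.

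The day 7 library stood apart from the others in genes that nearly all cells use, and its part in the ratios below was not tested. Over 80 ribosomal protein genes, log2 ratios of day 7 over day 3 had an SD of 0.76, with 8 genes at least 2-fold higher and 9 at least 2-fold lower. Between the PBS, day 1 and day 3 libraries the SD lay between 0.18 and 0.22, and at most 1 of the 80 genes passed 2-fold. Rpl13a stood at 178.8 CPM on day 3 and 790.4 CPM on day 7, and Rps21 at 2231 and 636 CPM. Actb, which encodes beta-actin, gave 40982 CPM on day 7 and between 7893 and 10195 CPM in the other 3 libraries, and Pfn1, which encodes an actin-binding protein, gave 3587 CPM against 702 to 821 CPM. Gapdh, a glycolytic enzyme, was at 1480 CPM on day 7 against 1646 to 2144.5 CPM. Larger gaps to all 3 other libraries were seen in Slc39a1, a zinc transporter gene (590 CPM on day 7 against 57.1 to 79.8 CPM), Slc24a5 (70.9 against 4.71 to 6.43 CPM), Rpgrip1 (163.9 against 10.9 to 16.4 CPM) and Gm42418 (151.1 against 1531 to 2825 CPM). Ratios of single genes of this size are thus found in genes of none of the lists. Rpl13a was also higher within the macrophage-marker and lymphocyte-marker barcodes defined below, with log2 ratios of 2.26 and 2.00. Lists of genes are therefore given beside single genes. No ratio can be had without the day 7 library.

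**Figure D1:**
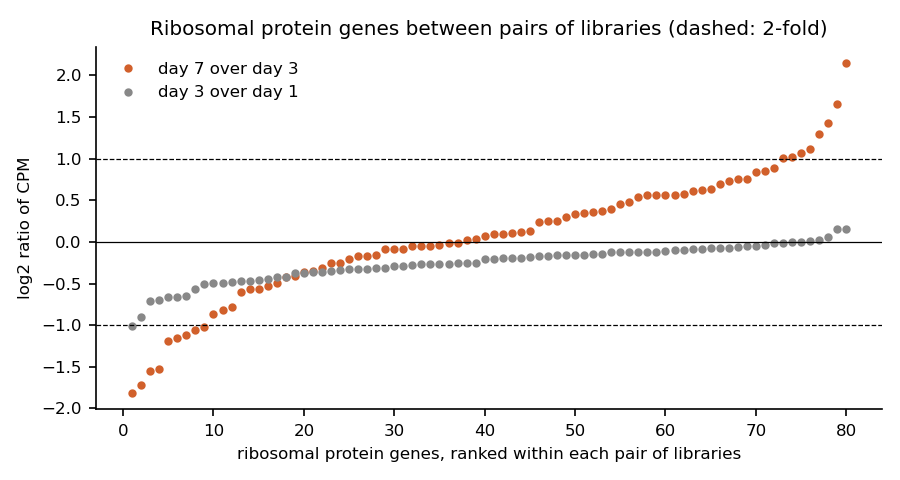
Log2 ratios of CPM for 80 ribosomal protein genes, ranked within each pair of libraries, for day 7 over day 3 (orange) and day 3 over day 1 (grey); dashed lines mark 2-fold. The orange points pass 2-fold at both ends (8 genes higher, 9 lower), while 1 grey point does.

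Most barcodes of both libraries carried macrophage transcripts, although the labels call the cells innate lymphoid. Barcodes were put in a macrophage-marker class when 12 macrophage genes (Lyz2, Apoe, C1qa and others) made up at least 1% of their UMIs, and in a lymphocyte-marker class when 14 genes of T, natural killer (NK) and group 1 innate lymphoid cells made up at least 0.2%. Macrophage-marker barcodes were 73.1% of the day 3 barcodes (71.8 to 74.3%) and 83.0% of the day 7 barcodes (81.5 to 84.3%). Lymphocyte-marker barcodes were 13.01% on day 3 (12.1 to 14.0%) and 6.14% on day 7 (5.27 to 7.09%), 646 and 170 barcodes. Barcodes above both limits made up 5.84% and 3.64%, and those below both 8.08% and 7.25%. These classes are ranges of a marker share rather than cell types, and on day 3 308 barcodes lay within 20% of the macrophage limit, on day 7 59. How the cells were gated and recovered can set these shares. In sums over all barcodes, fewer cells of a type and less RNA per cell cannot be told apart, so values within the classes are given beside them.

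Of the 3 transcripts of the sort gate, 2 were at least 2-fold lower on day 7 over all barcodes. Il7r, which encodes CD127, stood at 156.7 CPM on day 3 against 17.998 CPM on day 7, which is a log2 ratio of -3.12 (-3.30 to -2.95). Within macrophage-marker barcodes it went from 96.8 to 12.015 CPM, and within lymphocyte-marker barcodes from 641 to 198 CPM. Ptprc, which encodes CD45, stood at 487.8 and 196.1 CPM, and Thy1, which encodes CD90, at 59.01 and 41.1 CPM, within 2-fold. In lymphocyte-marker barcodes Thy1 stood at 357.7 and 517.7 CPM, a log2 ratio of 0.53 (0.32 to 0.74). Thinned to 2000 UMIs each, 43.3% of lymphocyte-marker barcodes held a Thy1 UMI on day 3 and 54.3% on day 7, beside 2.26% and 1.70% of macrophage-marker barcodes. Of the lymphocyte-marker barcodes, 99 of 646 on day 3 and 65 of 170 on day 7 were shallower and left out of thinned values.

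**Figure D2:**
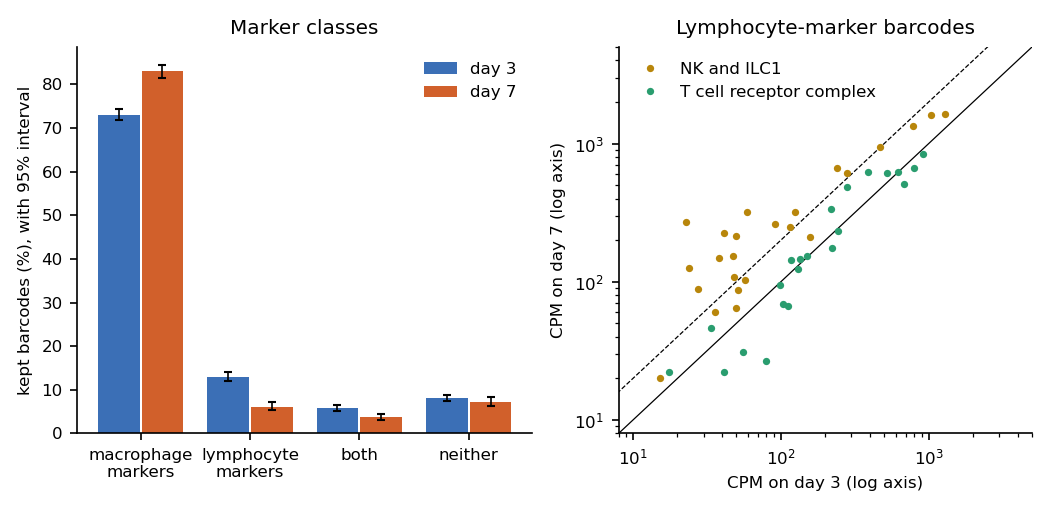
Left, share of kept barcodes in each marker class on day 3 (blue) and day 7 (orange), with exact 95% intervals of counting error. Right, CPM on day 3 and day 7 of NK and ILC1 genes and T cell receptor genes in lymphocyte-marker barcodes (log axes). The solid line is equality and the dashed line 2-fold higher on day 7. Most NK and ILC1 genes lie near or above the dashed line, while the T cell receptor genes lie around the solid line. The class was chosen on genes that include some of both kinds.

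Type I interferon-induced genes were lower on day 7 as a group. Over all kept barcodes 39 of 43 members with enough counts were at least 2-fold lower and 0 higher, and the median log2 ratio was -1.73. Isg15, an interferon-induced ubiquitin-like protein (ENSMUSG00000035692, mm10 chromosome 4, 156199424 to 156200818), stood at 1179 CPM on day 3 and at 199.7 CPM on day 7, which is a log2 ratio of -2.56 (-2.61 to -2.51). Oasl1, a relative of the oligoadenylate synthetases, stood at 226.9 and 28.7 CPM, and Mx1, an antiviral GTPase, at 94.4 and 12.1 CPM. Rsad2, which encodes viperin, stood at 455.7 and 69.0 CPM. The 4 members outside the count were Oas1a at 0.14, Oas1g at -0.18, Bst2 at -0.84 and Eif2ak2 at -0.93. Of the signalling components, Irf7 stood at 846.9 and 278.7 CPM, Stat2 at 98.9 and 23.2 CPM and Irf9 at 79.3 and 38.6 CPM.

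The interferon list was lower in both marker classes. Among 10865 genes tested in macrophage-marker barcodes 11.2% were lower and 8.03% higher, with a median of -0.08, and 36 of 43 members of the list were lower, with a list median of -1.82. Isg15 stood at 1212 and 218 CPM there, and Rsad2 at 508.6 and 82.8 CPM. In lymphocyte-marker barcodes 10.9% of 6195 genes were lower and 5.62% higher, with a median of -0.03, and 22 of 42 members were lower, with a list median of -1.02. There Isg15 stood at 930 and 340 CPM, a log2 ratio of -1.45 (-1.70 to -1.22), and Irf7 at 532 and 236 CPM. Lymphocyte-marker barcodes also held RNA of macrophages. C1qa, a macrophage complement gene, was found in 56.7% of thinned lymphocyte-marker barcodes on day 3 and 49.5% on day 7, and the median share of macrophage-marker UMIs in them was 0.319% and 0.476%. Its part in the interferon values was not tested.

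**Figure D3:**
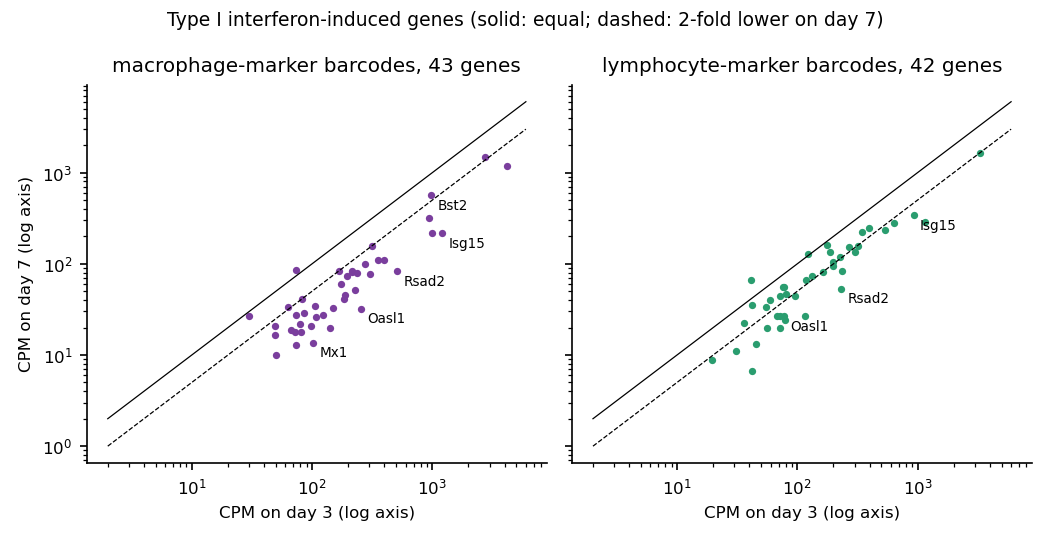
CPM on day 3 and day 7 of type I interferon-induced genes with enough counts in macrophage-marker and lymphocyte-marker barcodes, 1 point per gene on log axes; the solid line is equality and the dashed line 2-fold lower. In macrophage-marker barcodes 36 of 43 genes lie on or below the dashed line, in lymphocyte-marker barcodes 22 of 42.

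Per barcode, interferon sums lay lower on day 7 at the 10th percentile, the median and the 90th percentile. After thinning to 2000 UMIs, 3280 macrophage-marker barcodes of day 3 and 2000 of day 7 remained, with 347 and 299 shallower ones left out. The median barcode held 31 UMIs of the list on day 3 (10th to 90th percentile 8 to 75) and 8 on day 7 (2 to 27.1). At least 10 UMIs were found in 87.4% and 43.5% of these barcodes. Isg15 was detected in 66.2% of them on day 3 (64.5 to 67.8%) and in 22.95% on day 7 (21.1 to 24.9%), or in 83.1% and 33.0% unthinned. No cell type that lacks these genes was measured.

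**Figure D4:**
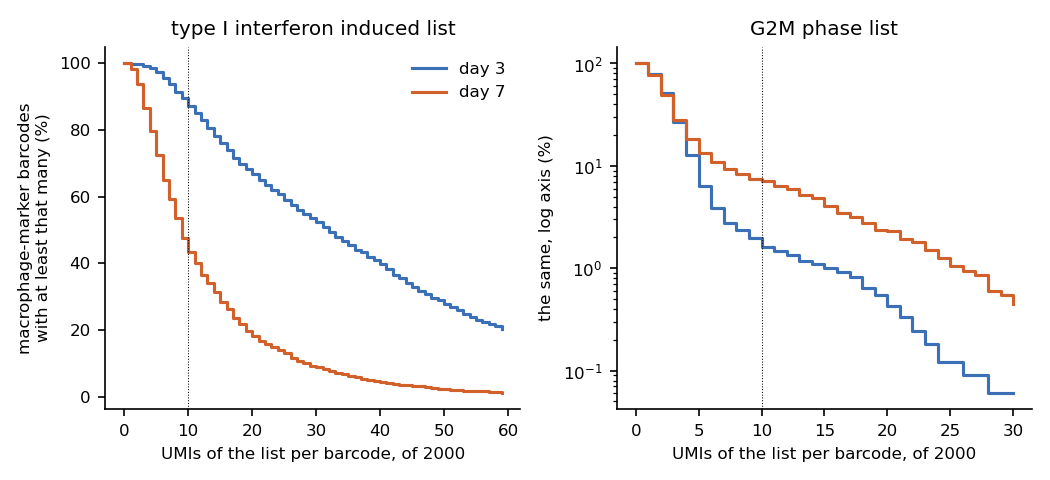
Share of thinned macrophage-marker barcodes (2000 UMIs each) that hold at least a given number of UMIs of the type I interferon list (left) and of the G2M list (right, log axis), on day 3 (blue) and day 7 (orange); the dotted line marks 10 UMIs. At that line the interferon curves stand at 87.4% and 43.5%, and the G2M curves at 1.62% and 7.05%.

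Neighbouring interferon programmes were lower as well. Of the interferon-inducible GTPases, which act on vacuoles of intracellular pathogens, 16 of 18 were lower (median -1.85), with Gbp4 at 66.7 and 11.1 CPM and Iigp1 at 85.7 and 19.4 CPM. All 7 Schlafen genes were lower. Slfn4, which interferon induces in myeloid cells, stood at 213 and 14.7 CPM, a log2 ratio of -3.86 (-4.05 to -3.67). Of the interferon-gamma and MHC class I genes 12 of 23 were lower and 0 higher (median -1.06). Cxcl9 and Cxcl10, chemokines that attract T cells through Cxcr3, stood at 572 and 60.8 CPM and at 1186 and 156 CPM, and Cd274, which encodes PD-L1, at 84.9 and 16.2 CPM. The class I heavy chain gene H2-K1 stood at 4088 and 1036 CPM, whereas H2-D1 stood at 2667 and 3023 CPM and B2m, the light chain, at 3667 and 6295 CPM. Reads of the similar H2 genes can be split between copies by the counting. The GTPases differed between the classes, with 16 of 17 lower in macrophage-marker barcodes (median -1.82) and 3 of 14 in lymphocyte-marker barcodes (median -0.70). In lymphocyte-marker barcodes the interferon-gamma list had 5 of 22 members lower and 2 higher, with a median of -0.31.

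MHC class II genes, with which macrophages and dendritic cells present antigen, split between members. H2-Eb1 stood at 1668 and 335 CPM, a log2 ratio of -2.31 (-2.35 to -2.27), H2-Aa at 1914 and 578.5 CPM and H2-Ab1 at 2012 and 657 CPM. Ciita, the activator of these genes, stood at 10.9 and 2.32 CPM. Cd74, the invariant chain, was nearer to equal at 3775 and 2202 CPM, and so was Ctss, a protease that processes it, at 2976 and 2503 CPM. In all, 7 of 12 members were lower and 0 higher. Within macrophage-marker barcodes it was 5 of 10, with 1 higher, and H2-Eb1 was at -2.31 there too.

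Transcripts of inflammatory monocytes were lower on day 7. Ly6c2 (409 and 34.4 CPM), Chil3 (29.4 and 2.13 CPM), Plac8 (254 and 47.6 CPM) and Ly6a (1891 and 278 CPM) were among 11 of 16 members that were lower, while Fn1 was higher at 50.1 and 226 CPM. Ccr2, the receptor that brings monocytes out of the marrow, stood at 198 and 148 CPM. Within macrophage-marker barcodes Ly6c2 went from 375 to 22.1 CPM, a log2 ratio of -4.08 (-4.26 to -3.91), and barcodes with a UMI of Ly6c2, Plac8 or Chil3 were 54.0% on day 3 and 11.0% on day 7, or 34.0% and 6.40% after thinning to 2000 UMIs. When the barcodes with such a UMI before thinning were left out, 34 of 43 interferon members were lower in macrophage-marker barcodes. The median was -1.48 in place of -1.82. Isg15 then stood at 787 and 198 CPM, and Cxcl9 at 714 and 72.5 CPM. Lack of a UMI of these genes depends on depth, so the barcodes left in can include monocytes. The part of monocytes in the interferon values was not tested.

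Inflammatory effector genes of macrophages followed the monocyte genes in direction. Nos2, which makes nitric oxide, gave 403 UMIs on day 3 and 9 on day 7, a log2 ratio of -4.37 (-5.50 to -3.43), and Acod1, which makes itaconate, gave 1868 and 66 UMIs. Of the arginine and itaconate genes 7 of 8 were lower, and the remaining member, Arg1, which competes with Nos2 for arginine, stood at 50.5 and 55.9 CPM. Il1b stood at 1668 and 356 CPM and Tnf at 263 and 61.5 CPM. The NF-kB list had 9 of 16 members lower and 0 higher (median -1.15), with Traf1 at 315 and 46.7 CPM and Rel at 271 and 70.5 CPM. The IL-1 and inflammasome list had 9 of 15 lower and 1 higher, Il33, a cytokine of stromal cells, at 0.722 and 4.64 CPM.

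A set of macrophage genes was higher on day 7, most of all those that accompany Fcrls and Cx3cr1, known from microglia and tissue macrophages. Of 10 members 8 were higher and 0 lower (median 1.70). Fcrls, an Fc receptor-like gene (ENSMUSG00000015852, mm10 chromosome 3, 87250758 to 87263738), stood at 231 and 1210 CPM, a log2 ratio of 2.39 (2.35 to 2.43). Cx3cr1, the fractalkine receptor, stood at 53.4 and 243 CPM, and Gpr34, a lysophosphatidylserine receptor, at 6.87 and 38.8 CPM. In thinned macrophage-marker barcodes Fcrls was detected in 24.1% on day 3 (22.6 to 25.6%) and 77.8% on day 7 (75.9 to 79.6%), while in lymphocyte-marker barcodes, which should lack it, the shares were 5.12% on day 3 and 21 of 105 barcodes on day 7. Median depths of the classes were 6666 and 5147 UMIs for macrophage-marker and 3414.5 and 2315.5 UMIs for lymphocyte-marker barcodes before thinning. Without monocyte-marker barcodes Fcrls stood at 396 and 1529 CPM.

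Resident-like macrophage genes were higher for 6 of 15 members and lower for 0 (median 0.74). Igf1, a growth factor, stood at 3.12 and 20.4 CPM, Gas6, which bridges dead cells to macrophage receptors, at 22.8 and 82.7 CPM, and Selenop, a selenium carrier, at 356 and 951 CPM. Mrc1, Folr2 and Pf4 lay between 0.39 and 0.41 and did not reach 2-fold. Among other genes that were higher, Spp1, which encodes osteopontin, stood at 604 and 3233 CPM. Mt2, a metallothionein, stood at 15.4 and 92.2 CPM, and Bhlhe41, a transcription factor, at 2.71 and 52.2 CPM. C1qa, by which macrophages were chosen, stood at 4452 and 4304 CPM.

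**Figure D5:**
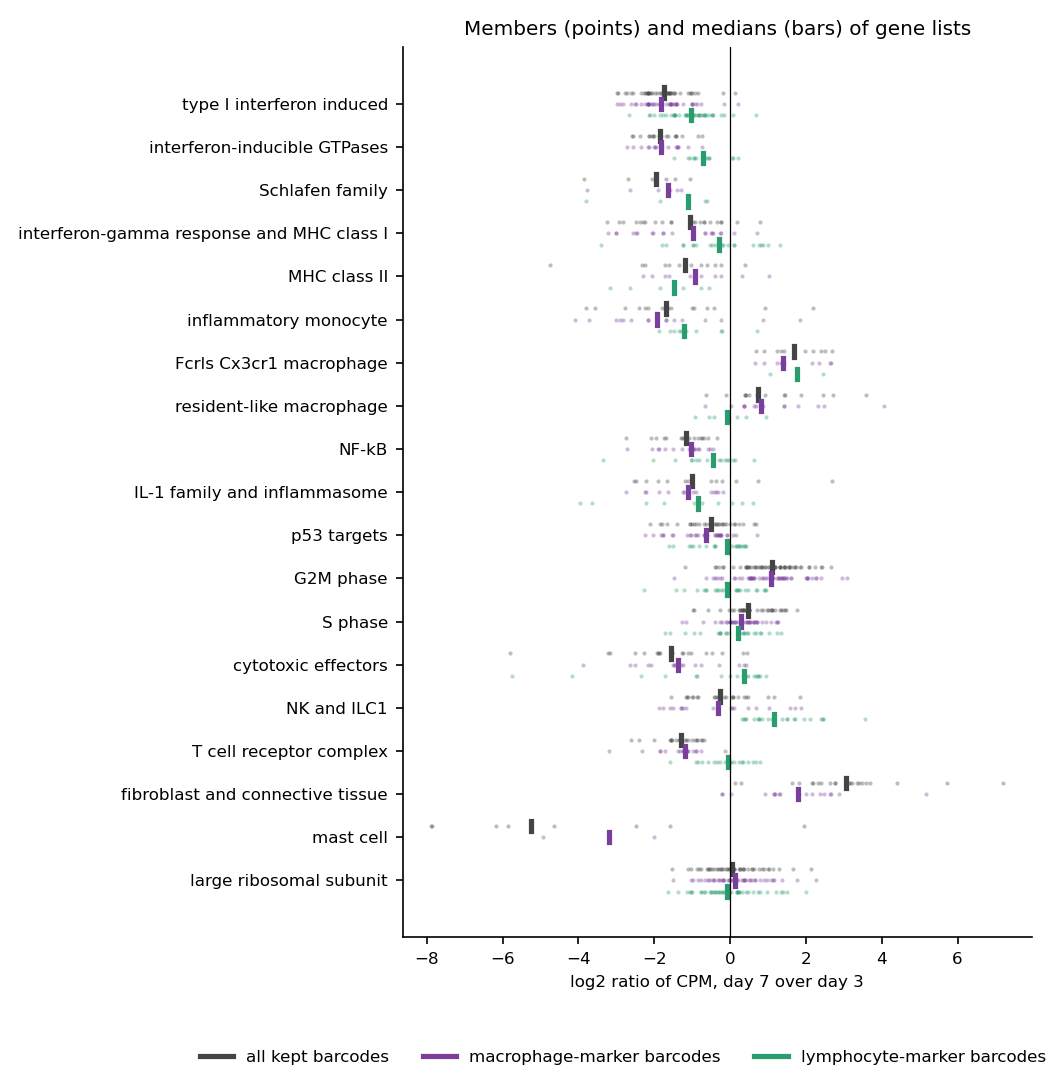
Log2 ratios of CPM, day 7 over day 3, of the members of 19 gene lists with at least 50 UMIs (points) and their medians (bars), over all kept barcodes, macrophage-marker barcodes and lymphocyte-marker barcodes. The medians of the type I interferon list stand at -1.73, -1.82 and -1.02, those of the NK and ILC1 list at -0.26, -0.31 and 1.15; the ribosomal list spreads around 0.04 over all barcodes.

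Targets of p53 were lower or within 2-fold. Of 33 members 7 were lower and 0 higher over all kept barcodes (median -0.51), and in macrophage-marker barcodes 10 of 32 were lower (median -0.63), beside 11.2% of all genes. Mdm2 stood at 247 and 56.7 CPM, a log2 ratio of -2.13 (-2.23 to -2.03), and Cdkn1a (ENSMUSG00000023067, mm10 chromosome 17, 29090976 to 29100727) at 1074 and 517.8 CPM, a log2 ratio of -1.05 (-1.09 to -1.02). Gdf15, a stress cytokine, stood at 41.4 and 11.4 CPM. The pro-apoptotic genes Bax and Bbc3 stood at 366 and 313 CPM and at 42.2 and 22.5 CPM. Phlda3, an inhibitor of AKT, stood at 48.8 and 24.5 CPM over all barcodes and at 48.9 and 12.015 CPM in macrophage-marker ones. In lymphocyte-marker barcodes 4 of 22 members were lower, with a median of -0.09. Genes of crosslink and excision repair had a median of -0.08, with 3 of 32 lower and 1 higher.

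Genes of the G2M phase were higher on day 7, and those of S phase less so. Of 54 G2M members 28 were higher and 1, Tubb4b, was lower (median 1.09). Cdkn3, a phosphatase of cyclin-dependent kinases, stood at 4.65 and 29.2 CPM, Ccnb2, a mitotic cyclin, at 9.82 and 52.5 CPM, and Cks1b, shown above with its promoter, at 26.3 and 124.7 CPM. Mki67 stood at 26.9 and 28.4 CPM, a log2 ratio of 0.08 (-0.09 to 0.24), and Top2a at 44.4 and 59.4 CPM. Mki67, a widely used proliferation marker, thus lay near equal while Cdkn3, Ccnb2 and Cks1b were more than 4-fold apart. In macrophage-marker barcodes 27 of 53 members were higher, with Ccnb2 at 5.94 and 45.7 CPM. Per thinned macrophage-marker barcode the median was 2 and 1 UMIs of the list, but at least 10 UMIs were found in 1.62% of barcodes on day 3 (53 barcodes) and in 7.05% on day 7 (141 barcodes). Over all kept barcodes S phase genes had 11 of 42 members higher and 0 lower (median 0.48). Ccne2 stood at 3.44 and 11.7 CPM and Rrm2, a subunit of ribonucleotide reductase, at 16.5 and 45.4 CPM. In macrophage-marker barcodes 4 of 42 S phase members were higher and 2 lower (median 0.30), beside 8.03% and 11.2% of all genes. In lymphocyte-marker barcodes 3 of 27 S phase members were higher and 3 lower, beside 5.62% and 10.9%. In lymphocyte-marker barcodes 0 of 26 G2M members were higher and 3 lower.

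T cell genes were lower over all barcodes but mostly within 2-fold inside the lymphocyte-marker class. Over all barcodes 16 of 22 T cell receptor genes were lower and 0 higher (median -1.30), and 12 of 14 regulatory T cell genes. Within lymphocyte-marker barcodes 1 of 22 T cell receptor genes was lower (median -0.05), where Foxp3, the factor of regulatory T cells, stood at 136.6 and 126.6 CPM and Cd8a at 111.5 and 66.7 CPM, a log2 ratio of -0.74 (-1.33 to -0.20). The class was chosen on 14 genes that include Cd3d, Cd3e, Cd3g, Trac, Trbc1, Trbc2, Trdc, Ncr1 and Klrb1c. The levels of these within it are descriptions. Near-equal levels of T cell receptor genes inside the class are thus partly set by how it was chosen.

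Genes of the NK and ILC1 list were mostly within 2-fold over all kept barcodes, with 3 of 25 higher and 5 lower (median -0.26). Their summed level on day 3 was 7963 CPM in macrophage-marker and 5185 CPM in lymphocyte-marker barcodes, so the list is not confined to NK cells. Within the lymphocyte-marker class 15 of 24 members were higher and 0 lower (median 1.15). Klra8, which encodes the activating receptor Ly49H, stood at 22.95 and 268.8 CPM, a log2 ratio of 3.55 (3.099 to 4.01), and Klra4, another Ly49 receptor, at 41.2 and 224.4 CPM. Genes of the Ly49 family are similar, and reads can be split between copies. Barcodes without a CD3 UMI but with an NK receptor UMI were 58 of 646 on day 3 (8.98%) and 51 of 170 on day 7 (23.2 to 37.5%), while barcodes with CD3 were 550 of 646 and 102 of 170. A share within the class also depends on how many barcodes with CD3 the class holds. Lack of a CD3 UMI depends on depth, which was lower on day 7. Called again at 2000 UMIs, barcodes with CD3 were 83.5% of 547 on day 3 and 51.4% of 105 on day 7 (41.5 to 61.3%), and those with an NK receptor but no CD3 were 7.50% and 36.2%. This call left out 99 and 65 shallower barcodes, and the part of that selection in the shares was not tested. Median depths before thinning were 4990 and 2844 UMIs in NK receptor barcodes without CD3 and 3386.5 and 2069.5 UMIs in barcodes with CD3. Within barcodes with CD3 alone the NK and ILC1 median was 0.33, and within the NK receptor barcodes without CD3 it was 0.66. After thinning, Klrb1c was detected in 6.95% of lymphocyte-marker barcodes on day 3 and 30.5% on day 7, beside 8 of 3280 and 5 of 2000 macrophage-marker barcodes. Klrb1c is among the genes by which the lymphocyte-marker class was chosen, and macrophage-marker barcodes lie below the limit for those genes. The contrast between the classes is thus partly set by how they were chosen.

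Effector genes of lymphocytes were lower on day 7 over all barcodes, and differed in direction within the lymphocyte-marker class. Over all barcodes 17 of 22 cytotoxic genes were lower and 0 higher (median -1.55). Gzmf, a granzyme of strongly activated cytotoxic cells, gave 2053 UMIs on day 3 and 17 on day 7, a log2 ratio of -5.80 (-6.58 to -5.11), and 1 barcode held 16.2% of the day 3 UMIs. Within the lymphocyte-marker class 4 of 20 cytotoxic genes were lower and the median was 0.36. Gzmb, the main granzyme of killer cells, stood at 1822 and 986.5 CPM there, Ifng, which encodes interferon-gamma, at 467 and 142 CPM, and Prf1, which encodes perforin, at 158 and 211 CPM. After thinning, Ifng was detected in 17.7% of these barcodes on day 3 and 17.1% on day 7, and Prf1 in 12.98% and 25.7%. In NK receptor barcodes without CD3 Gzmb stood at 5183 and 954 CPM, a log2 ratio of -2.44 (-2.69 to -2.20), Ifng at 1163 and 283 CPM and Prf1 at 690 and 449 CPM. In barcodes with CD3 Gzmb stood at 1363 and 1013 CPM and Ifng at 361 and 46.4 CPM.

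Most type 17 genes were lower on day 7. Il17a gave 247 UMIs on day 3 and 0 on day 7, which against a floor of 3 counts is at least 37.9-fold lower. Cd163l1, a scavenger receptor of gamma-delta T cells that make IL-17, gave 401 and 15 UMIs. Of the type 17 gamma-delta list 9 of 11 members were lower and 0 higher over all barcodes, although its summed level was 246.9 and 257.8 CPM. In macrophage-marker barcodes 4 of 6 members were lower and 0 higher, and the summed level was 204.65 and 283.61 CPM. Within lymphocyte-marker barcodes 4 of 7 members were lower and 0 higher, with summed levels of 782.5 and 382 CPM. Trdc, the constant segment of the delta chain, stood at 223 and 176 CPM within lymphocyte-marker barcodes, a log2 ratio of -0.35 (-0.70 to -0.01).

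Spry2, a feedback inhibitor of growth factor signalling, was higher in each of the 4 classes and had the highest ratio among the 6195 genes tested in lymphocyte-marker barcodes. It stood at 8.23 and 107.3 CPM over all barcodes, at 4.39 and 57.1 CPM in macrophage-marker and at 33.5 and 926.5 CPM in lymphocyte-marker barcodes, a log2 ratio of 4.79 (4.46 to 5.13). In NK receptor barcodes without CD3 it went from 125 to 1920 CPM. After thinning it was detected in 4.94% and 44.8% of lymphocyte-marker barcodes and in 0.732% and 8.35% of macrophage-marker ones. Dusp6, another feedback gene, stood at 26.7 and 86.1 CPM over all barcodes. Rpl13a, given above, was also higher in macrophage-marker and lymphocyte-marker barcodes. The part of the day 7 library in the Spry2 values was not tested.

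Most mast cell transcripts were lower on day 7, some of them at 0, and dendritic cell transcripts were lower too. Mcpt4, a mast cell protease, gave 1539 UMIs on day 3 and 0 on day 7, at least 236-fold lower against the floor, and Cpa3, Tpsb2 and Fcer1a also gave 0. Cma1, which encodes chymase, gave 2531 and 5 UMIs. On day 3, 95.6% of the Mcpt4 UMIs lay in barcodes with neither marker set, and 90 barcodes held any. The summed level of 6 mast cell markers was 150.7 CPM on day 3 and 1.57 CPM on day 7. In the longer mast cell list 7 of 8 members with enough counts were lower and 1 was higher, at a log2 ratio of 1.94. The summed level of that list was 167.3 and 6.40 CPM. All 10 dendritic cell genes with enough counts were lower, with Ccr7, which guides cells to lymph nodes, at 121.5 and 8.03 CPM and Ccl22 at 11.2 and 0.502 CPM, and 5 dendritic cell markers together stood at 190 and 26.3 CPM.

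Connective tissue genes were higher on day 7, mostly in barcodes with neither marker set. Of 23 members 21 were higher and 0 lower (median 3.04). Col1a1 (ENSMUSG00000001506, mm10 chromosome 11, 94936224 to 94953042), a chain of type I collagen, stood at 14.3 and 172 CPM, a log2 ratio of 3.59 (3.45 to 3.73), and Col3a1 at 22.95 and 241 CPM. On day 7, 55.8% of Col1a1 UMIs lay in barcodes with neither marker set and 43.8% in macrophage-marker barcodes. When the former were left out the list median was 1.88. Within macrophage-marker barcodes it was 1.78, and 0.32 when the class required 2% of macrophage-marker UMIs. Dlk1, a Notch ligand relative, stood at 2.54 and 106.4 CPM and Cdkn2a, which encodes p16 and p19ARF, at 3.49 and 97.3 CPM, with 93.8% and 90.1% of their day 7 UMIs in the 201 barcodes with neither set. These 201 barcodes had a median of 9230 UMIs, and Ptprc stood at 228 CPM in such barcodes on day 3 and 43.6 CPM on day 7. No cell type was assigned to them. The summed level of 5 fibroblast markers was 64.5 and 624 CPM, and that of 3 epithelial markers 2.77 and 0.188 CPM. The longer epithelial and tumour-like list had 4 of 6 members higher and 1 lower (median 2.23), and its summed level was 19.3 and 161.8 CPM. The higher members were Cdkn2a and the oncofetal genes Hmga2, Igf2bp1 and Igf2bp2, while Epcam, an epithelial adhesion molecule, was lower at 78 and 2 UMIs. In barcodes with neither marker set 4 of 4 members were higher, with summed levels of 77.7 and 1029 CPM.

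Some of the genes with the highest ratios rest on 1 barcode. The haemoglobin genes Hba-a1, Hba-a2, Hbb-bs and Hbb-bt together gave 11 UMIs on day 3 and 2367 on day 7. Of the latter, 2245 (94.8%) lay in 1 barcode with 5838 UMIs in all, of which 212 came from macrophage markers. The other 118 barcodes with any held 122 UMIs, at most 3 each. Likewise 121 of 136 day 7 UMIs of Prg4, which encodes the joint lubricant lubricin, lay in 1 barcode, and 42.6% of those of Thbs4, a matrix protein. By contrast Dlk1 was spread over 199 barcodes, of which the top one held 4.30% of the UMIs.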

How the data were processed

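The deposited files hold UMI counts per gene and barcode, with 31053 features, aligned to mm10. Cell Ranger 3.1.0 and Seurat 3.1.2 are named per the submitters' processing notes, and what Seurat was used for is not given in the sources used here. Depth was 36587207 UMIs on day 3 and 16153484 on day 7 before the filter, which removed 591 and 131 barcodes for fewer than 500 genes and 1196 and 135 for more than 10% mitochondrial UMIs (some for both). Groups were taken from the sample labels. Counts were summed per library and class, scaled to CPM and compared as log2 ratios with exact conditional binomial (Clopper-Pearson) intervals at 95%. A library at 0 was set to a floor of 3 counts. UMIs are counted molecules, and intervals cover counting error only. Scrublet's automatic limit marked 0 barcodes in either library and so did not work, and no doublets were removed from the main values. Removing 197 and 61 barcodes by score was an alternative. Named genes were the 12 highest and 12 lowest by the interval bound nearer to equality (6 and 6 within a class), up to 5 members per list with the largest ratios, and fixed defining genes. Genes outside that rule (Mrc1, Bst2, Ifit3, Hmgb2, Ube2c, Rps21, Gapdh, Apoe, Oas1a, Oas1g, Eif2ak2, Stat2, Irf9, H2-K1, H2-D1, B2m, Cd74, Ctss, Selenop, Folr2, Pf4, Bax, Phlda3, Tubb4b, Col3a1, Slc24a5, Gm42418) were chosen after their values were seen, or for their promoter or class. The classes, members and gene lists were chosen with earlier results of these data known. Gene positions came from GENCODE vM21. Python 3.11.15 with numpy 2.4.6, scipy 1.17.1, pandas 2.3.3 and scanpy 1.11.5 was used, with edgeR 4.0.16 and DESeq2 1.42.0 for scaling factors alone. The code was tested on simulated data. Other scalings, filters, marker limits and subsets of barcodes were tried as alternatives.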

Additional observations from a re-analysis of the deposited data

How the results depend on the processing

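No paired analysis was possible because each group is 1 library, and for the same reason no library could be left out. A value was counted as moved when it left the main value's 95% interval (counting error for genes and shares, an order-statistic interval over members for list medians), and a gene count when it changed by more than 1.5 times. Of 520 list medians recomputed, 508 did not move, and of the single-gene ratios 5730 did not, 785 moved and 5 reversed. Shares of macrophage-marker barcodes with a UMI moved without thinning in 15 cases and stayed in 1, for example from 24.1% to 38.2% for Fcrls on day 3 and from 8.35% to 18.4% for Spry2 on day 7. Without the 197 and 61 barcodes of highest Scrublet score 1364 genes were higher and 1301 lower of 11688. Alternatives for single barcode subsets were chosen after seeing the data. With at most 5% mitochondrial UMIs the connective tissue median was 3.64. With no count minimum 3210 of 18644 genes were higher. From the mean of per-barcode CPM the cytotoxic median was -0.90 and the NK and ILC1 median 0.26. Without barcodes in neither marker class 871 of 11287 genes were higher, the S phase median was 0.31, the connective tissue median 1.88, Igf2bp2 stood at -0.31 and Il1rl1 at -0.20. With a macrophage limit of 2%, connective tissue in macrophage-marker barcodes was at 0.32, Sparc at -0.13, and macrophage-marker barcodes made up 57.7% and 77.0%, with lymphocyte-marker barcodes at 16.1% on day 3. Without barcodes holding Ly6c2, Plac8 or Chil3, medians in macrophage-marker barcodes were -1.48 for type I interferon, -0.89 for T cell receptor and 1.06 for connective tissue genes, and Sparc was at -0.11. Among lymphocyte-marker barcodes with CD3 the T cell receptor and NK medians were 0.33 each. In NK receptor barcodes without CD3, 109 of 1332 genes were higher and 104 lower, the NK and ILC1 median was 0.66 and Spp1 stood at -0.080. A lymphocyte limit of 0.1% gave macrophage-marker shares of 69.7% and 81.1%, and 0.4% gave 77.2% and 85.6%, with lymphocyte-marker barcodes at 10.8% on day 3. The cause of these changes was not tested, and the subsets also hold fewer barcodes. Scaling by TMM or DESeq2 factors shifted the ratios over all barcodes by -0.081 and -0.095 (log2).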
